A study of Mus musculus with 18 samples.

Results

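Enhancers are DNA elements, often far from the gene they act on, at which transcription factors bind and from which RNA polymerase II makes short, unstable enhancer RNAs (eRNAs). Because eRNAs are degraded quickly, they are poorly seen in steady-state RNA and are usually measured in newly made RNA. In TT-seq, cells are given 4-thiouridine for a few minutes, and only RNA that has taken it up is purified and sequenced. The histone mark H3K27ac, an acetylation, is found at active enhancers and promoters, and H3K4me1, a monomethylation, at enhancers whether or not they are active.

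The regions described here are the putative enhancers of mouse embryonic stem cells with the most TT-seq reads, chosen as those with a baseMean of 100 or more. The baseMean is the authors' mean, over all libraries together, of the reads in a region after division by a size factor for each library. Of 15438 putative enhancer regions in the deposited table, 1121 reached this value, or 7.26% of the regions. The other 14317 regions lay below it, and 13768 of these had a baseMean above 0. The regions carry arbitrary identifiers, ENH followed by a number. The table gives neither their coordinates nor their widths, so no sequence, position or neighbouring gene is given for them here.

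The 18 libraries came from 6 conditions with 3 libraries each. All were made from E14 mouse embryonic stem cells that carried osTIR1, the plant F-box protein that recognises the auxin-inducible degron (AID), and that grew with LIF and inhibitors of GSK and MEK. The Untagged cells had no further change, while in SPT16_AID_V5 Clone1 and Clone2, which were independently targeted lines, Supt16 was tagged at its C terminus with a mini-AID and a triple V5 tag. SPT16 is a subunit of the histone chaperone FACT, and the auxin 3-IAA leads to degradation of the tagged protein. Each line was treated for 24 h with 0.1% ethanol or with 3-IAA, at 500 nM by the labels and at 500 µM by the study's methods, and was labelled with 4-thiouridine for 5 min.

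The study compared SPT16-depleted with control libraries. That comparison was not made here, because the tables used hold no values per library and the authors' own fold changes and p-values were not used. A baseMean averages control and SPT16-depleted libraries, so it shows how many reads a region had over the whole experiment and not in which condition it had them. The spread between libraries, clones and conditions is therefore unknown for every value given here. A value also counts reads per region and is not divided by the region's width, so that "highly transcribed" is used below only in the sense of many reads per region. The study left out sites near the starts of coding genes, but describes no removal of gene bodies or of non-coding genes. Reads in a region therefore need not come from an enhancer RNA, and their origin was not tested.

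As a check of the cells, the 7 pluripotency factors listed for it were found in the deposited gene table, with baseMean values between 5985 for Sox2 and 72140 for Tfcp2l1. The 7 markers of other lineages lay between 0.786 for Myod1 and 208 for T, and the groups did not overlap. Among all genes, the pluripotency factors lay from percentile 86.9 (Sox2) to 99.97 (Tfcp2l1). The other markers lay from percentile 18.2 (Myod1) to 47.8 (T), so the highest of them was near the middle of all genes. These are reads per gene, not per length, and are averages over control and SPT16-depleted cells.

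Most of the TT-seq reads in putative enhancers lay in a handful of regions. The baseMean values of all 15438 regions summed to 1.11 M normalised reads, of which the 1121 regions with a baseMean of 100 or more held 79.9%. The 10 regions with the most reads alone held 56.7% of the reads in all putative enhancers. The remaining 1111 members held 23.2%, and the 14317 regions below 100 held 20.1%. Since the members were chosen by their reads, these shares are a description of the table.

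ENH14975 had the most reads of any putative enhancer. Its baseMean was 205204, or 18.4% of the reads in all regions. It was 2.15 times that of the next region, ENH14321, at 95639 (8.58% of the reads). ENH14537 followed closely, with a baseMean of 92273 (8.28%), so that the regions at ranks 2 and 3 differed by 3.52%. With these 3 regions, 35.3% of the reads were reached.

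Below them, ENH14533 had a baseMean of 59693 and ENH14578 one of 48430. The latter differed by 5.03% from ENH14729, at 45992. ENH14917, at 34449, was the region with which the running sum first passed 50%, at 52.2% of the reads. Thus 7 regions, or 0.0453% of all putative enhancers, held the larger part of the reads.

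The last of the 10 were ENH4418, with a baseMean of 24729, ENH3594, with 13599, and ENH15000, with 11536. ENH15000 had 1.68 times the reads of the region at rank 11, and no region outside these 10 reached 10000. The counting error of each of the 10 was 0.226% of its value or less, so the order of neighbours among them is not limited by the number of reads. Whether neighbours such as ENH14321 and ENH14537 differ beyond the spread between libraries cannot be told from a pooled mean.

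**Figure D1:**
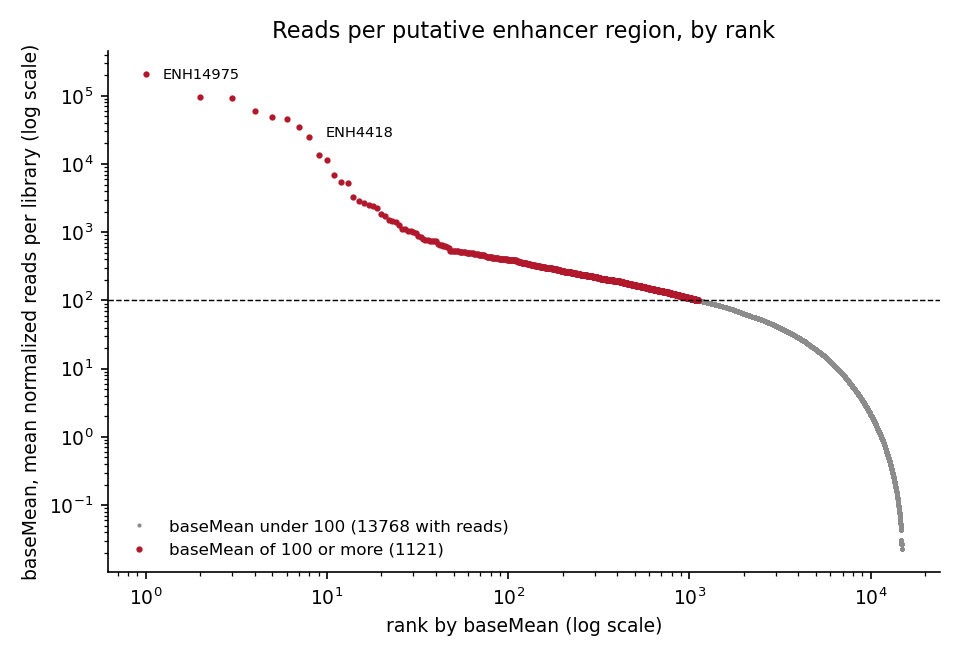
Each point is 1 putative enhancer region with reads, placed by its rank (x axis, log scale) and its baseMean in mean normalised reads per library (y axis, log scale). The 1121 regions at or above the dashed line at 100 are red, and the 10 at the upper left, from ENH14975 at 205204 to ENH15000 at 11536, stand above a long slope of regions between 100 and 10000.

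Outside these 10 regions the members covered a far narrower range, with at most 68.4 times between the highest and the lowest of them, against 2051 times over all members. Their median baseMean was 156, and the middle member of all 1121, ENH10071, had a baseMean of 157. Over all members the quartiles were 122 and 230, and the 90th percentile was 374. The mean over all members, 794, was 5.07 times their median, and only 33 of the 1121 members lay above it.

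By level, 763 members had a baseMean from 100 to 200, which is 68.1% of the members, and they held 9.45% of all reads. Another 298 members lay between 200 and 500 and held 7.72%. Members under 500 were thus 94.6% of the members with 17.2% of the reads. Between 500 and 1000 there were 30 members with 1.72% of the reads, and between 1000 and 10000 there were 20 with 4.33%. The 30 members at 1000 or more were 2.68% of the members and held 61.0% of the reads.

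**Figure D2:**
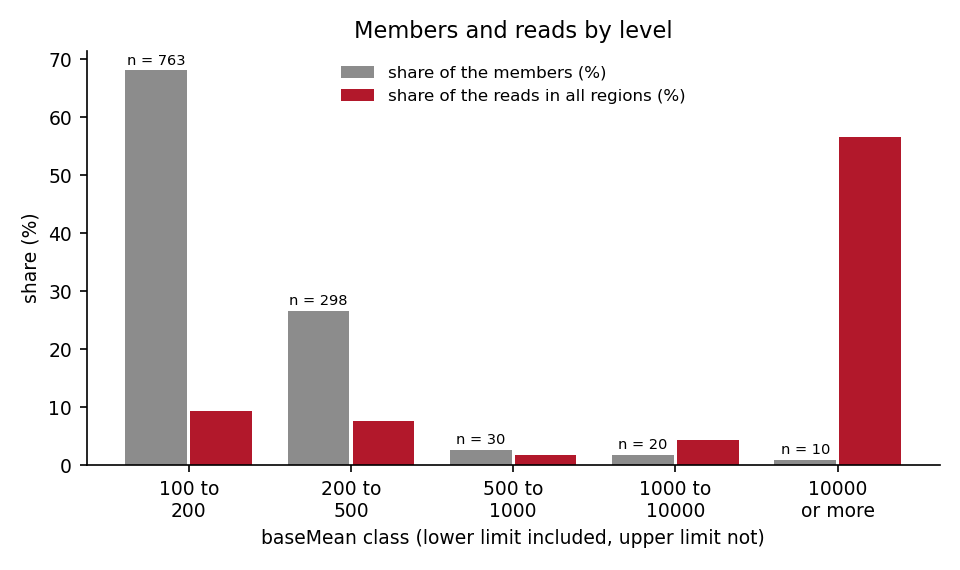
Bars give, for 5 classes of baseMean (x axis), the share of the 1121 members in the class (grey, with the number of members) and the share of the summed baseMean of all 15438 regions that they held (red), both in percent. The class from 100 to 200 had 68.1% of the members and 9.45% of the reads, and the 10 members of 10000 or more had 0.892% of the members and 56.7% of the reads.

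The reads behind a value follow from the lowest values of the table. A region with 1 read in 1 library has a baseMean set by the size factor of that library alone, and 18 such values were found among the putative enhancers, as many as there were libraries. They ran from 0.0229 to 0.106, so that the largest size factor found for the putative enhancers was 4.62 times the smallest. In the other deposited tables, each normalised by itself, this ratio lay between 3.74 and 5.34, so it is not a measure of depth alone. From the 18 values, a baseMean of 100 stands for about 2040 reads over all libraries, if the level was the same in each. Under the same condition for every region, all members together held about 18.2 M of about 22.7 M reads in putative enhancers.

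At a baseMean of 100 the counting error (SD) was 2.43. The members just inside the limit were ENH225 at 100.5, ENH5362 at 100.2 and ENH6487 at 100.03, and the regions just outside it were ENH6635 at 99.99, ENH9807 at 99.96 and ENH484 at 99.9. These 6 regions differed by less than the counting error. Within 1.96 SD of the limit, from 95.2 to 104.8, lay 165 regions, of which 69 were members (6.16% of them) and 96 were not. PCR duplicates are not independent molecules, and the counting error covers neither them nor the spread between libraries.

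The concentration rested on the 10 regions at the top. Without ENH14975, 16 regions were needed for 50% of the remaining reads. Without the 5 regions with the most reads, the number was 477, and without the top 10 it was 949. In the last case the 1111 members left held 53.6% of the reads that remained. Among these 1111 members alone, 239 held 50% of the reads, and the 10 highest of them held 13.8%.

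To ask whether other classes of transcript were as uneven, the same sums were made in each of the other deposited tables. Those tables were normalised by themselves, so shares are compared within a table and levels only roughly across them. Among DNaseI hypersensitive sites away from gene starts (TSS-distal DHSs), 925 of 70586 sites were needed for 50% of the reads, or 1.31% of the sites. For promoter upstream transcripts (PROMPTs), which run divergently from a gene's start, it was 415 of 32253, or 1.29%. For protein-coding genes it was 1463 of 21859, or 6.69%. The 5 features with the most reads held 45.0% of the reads of putative enhancers, 4.59% of those of DHSs, 23.0% of those of PROMPTs and 0.847% of those of genes.

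A baseMean of 100 or more was reached by 7.26% of putative enhancers, against 1.85% of DHSs, 0.915% of PROMPTs and 57.3% of protein-coding genes. When the same fraction of each table was taken from the top, it held 79.9% of the reads of putative enhancers, 81.5% of those of DHSs, 79.7% of those of PROMPTs and 52.2% of those of genes. The shares of the non-coding classes thus lay within 79.7% to 81.5% at this fraction, while their top 5 features held from 4.59% to 45.0% of the reads. The fractions here and above are of all features, including those without reads. Reads were found in 14889 of 15438 putative enhancers, 57954 of 70586 DHSs, 23257 of 32253 PROMPTs and 20157 of 21859 genes.

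**Figure D3:**
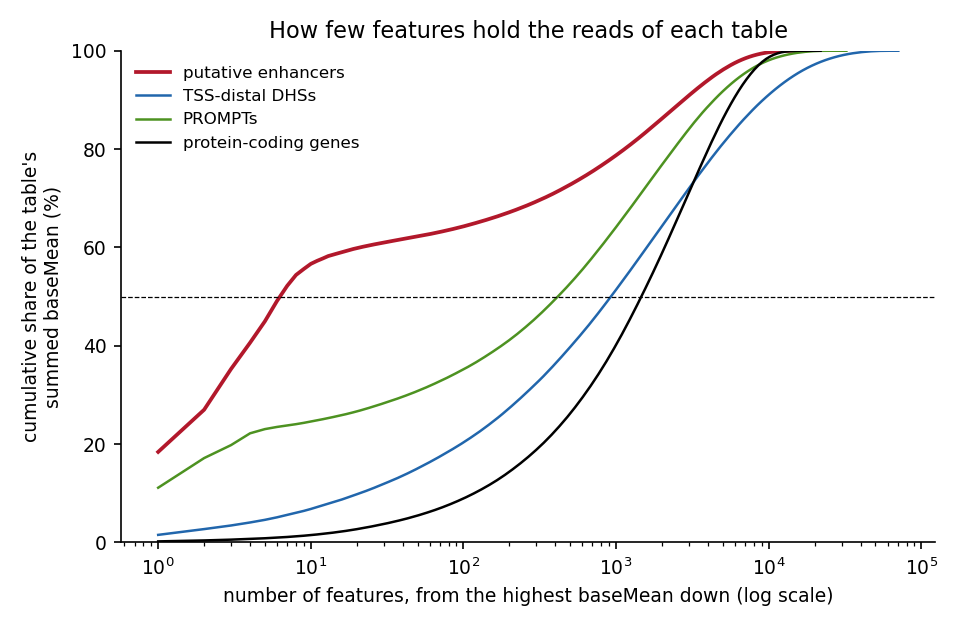
Each line gives the cumulative share of a table's summed baseMean in percent (y axis) held by a given number of features, taken from the highest baseMean down (x axis, log scale), for putative enhancers (red), TSS-distal DHSs (blue), PROMPTs (green) and protein-coding genes (black). The dashed line marks 50%, which is passed at 7 putative enhancers, 415 PROMPTs, 925 DHSs and 1463 genes.

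By baseMean, the lead of the 10 highest putative enhancers over the other tables held in full only against DHSs. All 10 exceeded the highest DHS, which had a baseMean of 10753, and ENH14975 exceeded it 19.1 times. Each putative enhancer was defined by the presence of a DHS away from gene starts together with an H3K27ac or H3K4me1 peak. The widths over which reads were counted are not known here for putative enhancers. Both classes may therefore have been counted over unlike intervals, and the gap is not a comparison of the same sites. The highest PROMPT, at 26872, was exceeded by 7 putative enhancers. The highest protein-coding gene, at 119344, was exceeded by ENH14975 alone, by 1.72 times, and 1280 genes had a higher baseMean than ENH15000. By the geometric mean of the values that stand for 1 read, the scale of the putative enhancers was 0.979 times that of the genes and 1.002 times that of the PROMPTs. It was 1.03 times that of the DHSs, for which 17 such values were found.

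The identifiers' numbers, which the choice of members did not use, showed where in the list the members lay. Of the 10 regions with the most reads, 8 had numbers between 14321 and 15000, a span of 679 numbers in a list of 15438, and these 8 held 53.2% of all reads. The exceptions were ENH4418 and ENH3594. In windows of 1000 numbers, the window from 14001 to 15000 held 57.8% of all reads and 16 of the 30 regions with a baseMean of 1000 or more. No other window held more than 5.84% of the reads, which was the value for numbers 4001 to 5000.

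The share of members also changed along the numbers. It lay between 7.30% and 10.3% in each of the 10 windows up to number 10000, was 4.80% in the next and lay between 2.00% and 3.10% from 11001 to 14000. In the last windows it was 7.20% and 6.85%. The median baseMean of all regions in a window followed a similar course, at 7.75 to 9.43 up to number 10000. It was 3.33 in the next window and 1.84 to 1.98 from 11001 to 14000. From 14001 to 15000 the median was 5.38, and in the last window 6.65, both below every window up to 10000.

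When the list was divided into 3 runs of numbers by the change in rank of baseMean, a division made after the values had been seen, the limits fell after numbers 10170 and 14260. The run from 1 to 10170 held 916 members (9.01% of its regions) and 35.5% of all reads. The run from 10171 to 14260 held 108 members (2.64% of its regions) and 5.81% of the reads, and 6.99% of its regions had no read, against 2.44% in the run before it. The run from 14261 to 15438 held 97 members among 1178 regions (8.23%) and 58.7% of the reads.

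The median baseMean of the members themselves was 156, 148 and 186 in these runs. In the window from 14001 to 15000 it was 236, the highest of any window. Of the 30 regions with a baseMean of 1000 or more, 17 lay in the last run. Without the top 10 regions of the table, the mean baseMean was 35.2 in the first run, 15.8 in the second and 51.8 in the last, which then held 12.6% of the remaining reads. The median over all regions was 8.78 in the first run, 1.99 in the second and 6.69 in the last. The higher mean of the last run thus did not hold for its regions in general. The source of the numbering was not stated beyond its being arbitrary, so what these runs share is not known here.

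Members were compared with their neighbours in number. Of the 1121 members, 111 were followed by a member with the next number, or 9.90%. Members made up 7.26% of all regions, and 8.33% of the regions of their own run of numbers as a mean over members, so part of the difference from 7.26% repeats the uneven shares of the runs. For numbers 2 apart the share was 6.60%. Spearman's rho of the baseMean of regions with consecutive numbers was 0.0528 over 15437 pairs, all measured in the same libraries.

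**Figure D4:**
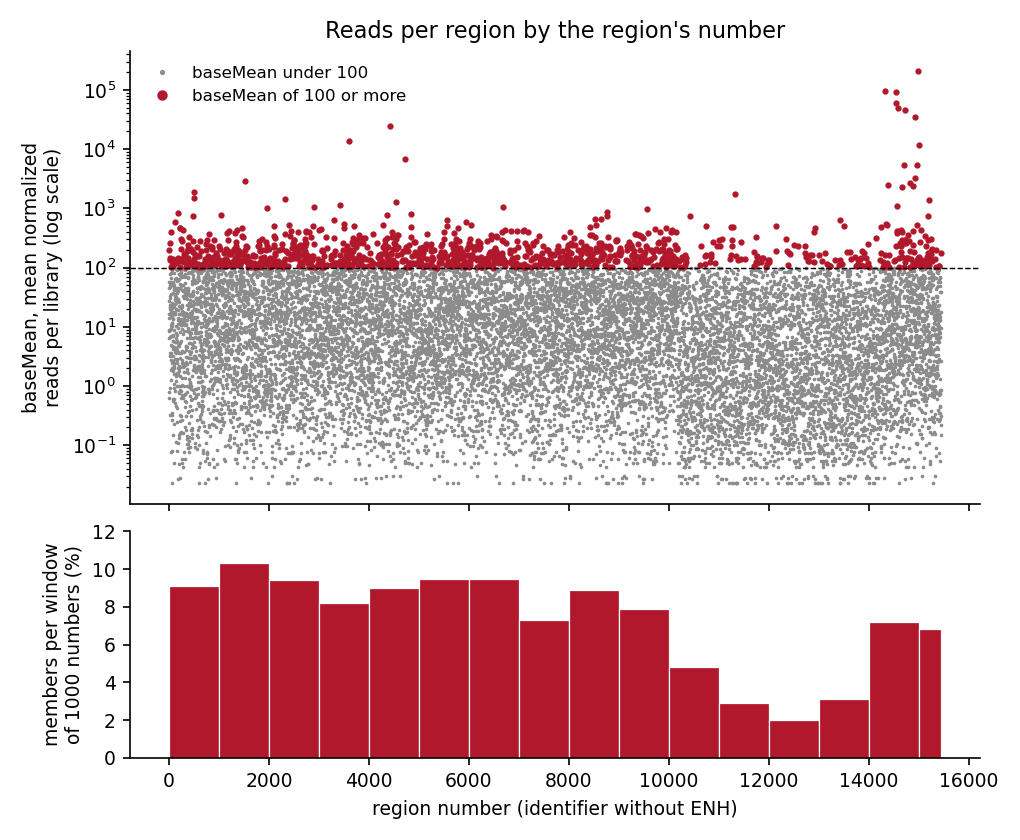
In the upper panel each point is 1 putative enhancer region with reads, by its identifier's number (x axis) and its baseMean in mean normalised reads per library (y axis, log scale), with members in red above the dashed line at 100. The lower panel gives the percentage of members in each window of 1000 numbers (the last window holds 438), which was 2.00% to 3.10% from 11001 to 14000 and 7.30% to 10.3% up to 10000, and the highest points lie between 14321 and 15000.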

How the data were processed

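TT-seq reads from 18 libraries in 6 groups were processed by the authors, who used Trim Galore for trimming, mapped unique alignments to mm10 by STAR, counted them by strand with featureCounts (the labels name HTSeq) and normalised them with DESeq2, with no filter on expression. The baseMean in the 4 deposited tables is a signal, the mean of counts divided by size factors over libraries pooled by the authors, and each table was normalised by itself. The tables' other 4 value columns, the authors' shrunken log2 fold change, its standard error, p-value and adjusted p-value, were not used. Those tables hold 0 columns of values per library, so depth per library is known only from size factors.

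Regions at or above a baseMean of 100 were kept, and sums, ranks and shares were computed. Values of 1 read in 1 library were sought up to a baseMean of 0.2, among values at least 3 regions and 0.06 of the most frequent value's regions shared, leaving out sums of smaller ones (tolerance 2e-06). The counting error assumed Poisson counts at 1 level in all libraries. In 20 simulated tables of 15438 regions the search found a median of 18 of 18 values, at least 17, with up to 2 false ones. Limits of 3 runs of numbers minimised squares of ranks, in steps of 10 numbers with runs of at least 500. Named regions were the top 10 members, the middle one, and 3 on either side of the limit. The members, lists and limits were chosen with earlier results of these data known. No test was run, since the members were chosen by the value described. Alternatives were other thresholds, leaving out the highest regions, a minimum baseMean of 1 and other search limits. The tools were matplotlib 3.10.9, scipy 1.17.1, pandas 2.3.3 and numpy 2.4.6 under Python 3.11.15, and the random seed was 1.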

Additional observations from a re-analysis of the deposited data

How the results depend on the processing

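The number of members followed the threshold, with 2591 regions at a baseMean of 50 or more and 358 at 200 or more, and their share of the reads was 89.2% and 70.4%. Set on the scale of the gene table by the geometric mean of the values for 1 read, the threshold gave 1160 regions. Members were 9.82% of the regions with a baseMean of 1 or more. Without the region with the most reads, members held 75.3% of the reads, the top 5 of the rest held 37.6%, and 16 regions held 50%. Without the top 5 regions, these values were 63.4%, 21.2% and 477 regions, and 4185 regions held 90%, against 2771 in the whole table. Among regions with a baseMean of 1 or more, the members' share was 80.0% and that of the top 5 was 45.0%, which differ from the whole table in the first decimal at most, and 7 regions again held 50%. In an alternative added after the data were seen, 6.60% of members had a member 2 numbers on. The limits of the runs of numbers were the same, 10170 and 14260, on a log10 scale. The search for values of 1 read found 17 to 19 under other limits. No library could be left out, and the planned fits per library were not run. No paired analysis was possible because the tables used hold 1 mean over all libraries and no column carries a replicate number. Depth limits the membership of regions near the threshold, and differences between libraries or conditions were not measured.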
